A study of Mus musculus with 30 samples.

Results

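Mouse embryonic stem (ES) cells sorted in G2 were compared with cells sorted in early G1, both taken 24 h after doxycycline (DOX) had been withdrawn. The comparison held 6 of the 30 libraries of the study: G2 and early G1, each with replicates 1, 2 and 3, paired by replicate number and counted over exons and over introns. All cells were EKOiE-Ccna-Gfp, a 129/Ola line in which Esrrb is knocked out, a DOX-inducible Esrrb transgene is present and a Ccna2-Gfp reporter was used for the sort. They were grown on gelatine in serum with LIF. The controls of the withdrawal were the same phases kept in DOX, also 3 libraries each, and late G1 was sorted in both states, so that 18 RNA-seq libraries entered the fit. The knockout is shared by every library. Counts of the transgene and of the Esrrb locus cannot be separated, the labels give no sort gates, and they do not say whether replicates were separate cultures, so p-values measure only the spread between these samples. In bulk RNA, a smaller share of cells of one kind and less RNA per cell cannot be told apart.

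Proliferating cells make the messages for mitosis late in the cycle. Cyclin B and Cdk1 drive entry into mitosis, and Aurora kinases, kinesins and kinetochore proteins build and correct the spindle. The anaphase-promoting complex then destroys cyclins as cells divide. Early G1 cells have just left mitosis. The genes of replication origins and forks are transcribed ahead of S phase under E2F factors, and replication-dependent histone messages, which end without a poly(A) tail, accumulate in S phase. Many promoters of mitotic genes carry CCAAT boxes, bound by NF-Y, and a cell cycle homology region (CHR) near the start, through which the MuvB complexes act. Mouse ES cells have a short G1 phase, and their naive state is held by factors that include Esrrb, Nanog and Klf2.

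To show the regulatory sequence of the genes that stood furthest above early G1 in this comparison, the 150 bases before the start are given for the first 5 G2/M genes of that order that the RefSeq promoter table (GRCm38.p6) holds. Capitals mark TTTGAA (the CHR core), CCAAT and the E2F cores TTCCCGC or TTGGCGC, on either strand, read 5′ to 3′ in the direction of the gene.
Ube2c, chr2:164769779-164769928, + strand: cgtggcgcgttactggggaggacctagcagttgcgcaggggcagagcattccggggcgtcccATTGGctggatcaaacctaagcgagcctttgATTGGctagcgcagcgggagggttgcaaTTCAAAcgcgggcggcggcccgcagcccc
Top2a, chr11:99024190-99024339, − strand: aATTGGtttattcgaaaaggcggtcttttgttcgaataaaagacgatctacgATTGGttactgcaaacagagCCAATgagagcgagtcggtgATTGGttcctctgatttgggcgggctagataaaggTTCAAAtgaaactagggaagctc
Prc1, chr7:80294301-80294450, + strand, the first of 2 listed starts: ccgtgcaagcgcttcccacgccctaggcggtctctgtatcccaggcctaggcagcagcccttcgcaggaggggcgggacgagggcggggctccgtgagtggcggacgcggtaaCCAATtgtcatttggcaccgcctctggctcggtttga
Nusap1, chr2:119618148-119618297, + strand: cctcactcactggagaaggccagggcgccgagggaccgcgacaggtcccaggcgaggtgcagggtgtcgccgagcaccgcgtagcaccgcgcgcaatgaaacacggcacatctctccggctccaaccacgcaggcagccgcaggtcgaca
Cdk1, chr10:69352913-69353062, − strand: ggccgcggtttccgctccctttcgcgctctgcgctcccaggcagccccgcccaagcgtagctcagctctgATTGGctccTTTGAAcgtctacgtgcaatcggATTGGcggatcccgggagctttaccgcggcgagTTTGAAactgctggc
Counted back from the start, a CHR core began at base -29 in Ube2c, at -23 in Top2a and at -71 and -15 in Cdk1. Prc1 held a CCAAT box at -37 and no CHR core in this window, and Nusap1 held none of the letters searched. Over the 250 bases before the start, a CHR core was found in 37.6% of the 85 promoters matched to 78 of the 98 G2/M genes and in 16% of all 32851 promoters. A CCAAT box was found in 68.2% and 33.8%, and an E2F core in 12.9% and 5.62%. Of the 62 promoters of 54 G1/S genes, 14.5% held a CHR core and 30.6% an E2F core. None of the 61 replication histone genes had an entry under its symbol.

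The libraries were compared with each other first, because the replicate 2 libraries of both phases were almost the same. The measure is a chi-square over genes divided by its degrees of freedom, which is near 1 when a pair of libraries differs by sampling alone. The libraries labelled early G1 and G2 replicate 2 after withdrawal gave 1.12 over 12101 genes in exons and 1.18 over 11653 genes in introns. G2 replicate 3 gave 1.45 against late G1 replicate 3, early G1 replicate 1 gave 4.08 against late G1 replicate 1, and 3 pairs in DOX gave 1.05, 1.14 and 1.48 (early and late G1 replicate 2, late G1 and G2 replicate 1, early G1 and G2 replicate 3). Every other pair in exons was at 11.5 or more. These pairs carry different phase labels and the same number, and which label holds cannot be told apart. No library was moved to another group. The main results below are given with all 3 pairs and without both libraries numbered 2, a choice made after the data were seen. That pair was left out because its libraries hardly differed, so larger differences and more calls can follow from the choice itself. The comparison then rests on pairs 1 and 3, and the other close libraries stay in the fit as separate samples. Its SEs and p-values are to be read with that limit.

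**Figure D1:**
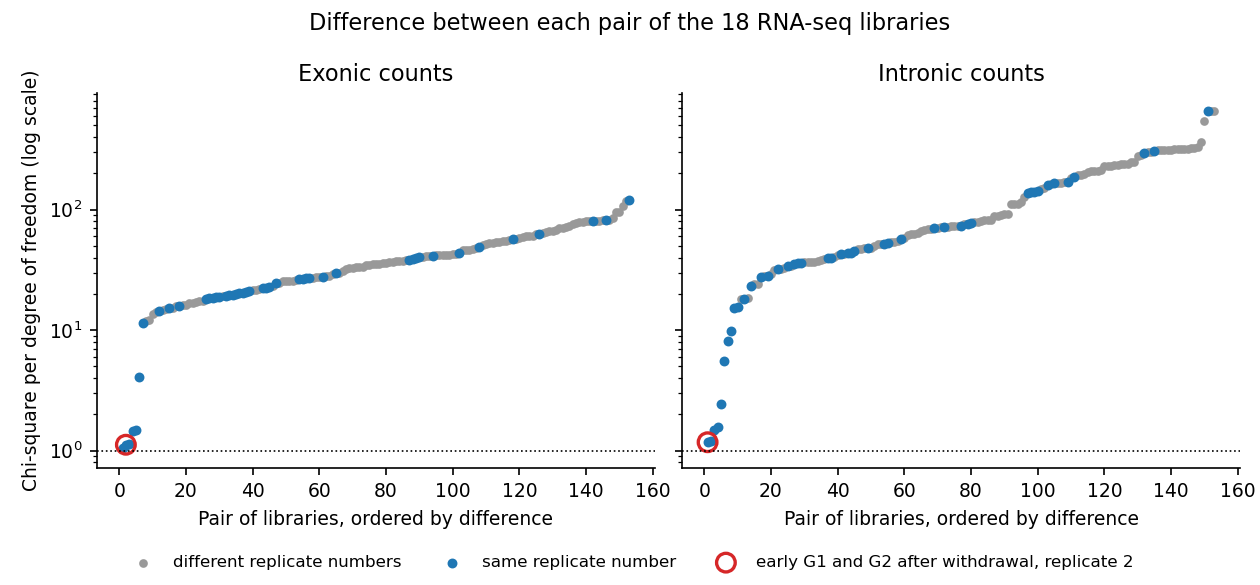
Chi-square per degree of freedom for each of the 153 pairs among the 18 RNA-seq libraries (log axis), ordered by size, in exons (left) and introns (right). Blue points share a replicate number, grey points do not, the dotted line is at 1, and the red ring marks early G1 and G2 replicate 2 after withdrawal (1.12 and 1.18).

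Exonic totals were 17.9, 18.2 and 24.3 M counts (M, mega) in early G1 replicates 1 to 3 and 31.8, 17.7 and 19.95 M in G2. Intronic totals were 10.8, 9.11 and 13.3 M and 20.8, 8.85 and 10.7 M, so that G2 replicate 1 was the deepest library in both tables. The 8 ES-cell markers had at least 28.7 counts per M (CPM) in all 6 libraries. Of 18 fibroblast or feeder markers, 9 were under 1 CPM in all 6, Postn did not pass 0.0943 CPM, and the summed level was 506 to 876 CPM in early G1 and 518 to 896 CPM in G2, most of it Fn1. Of 14 trophoblast markers, 5 were under 1 CPM in all 6, including Cdx2 and Elf5, and Tpbpa was at 0.

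Esrrb, the withdrawn factor, was read first. Its exonic level in CPM, scaled by TMM as are all levels below unless stated, was 140, 193 and 155 in early G1 replicates 1 to 3 and 195, 193 and 183 in G2. All G2 libraries lay above early G1 replicates 1 and 3, and early G1 replicate 2 lay among them. The log2 difference, G2 minus early G1 in this and all later values, was 0.23 ± 0.12 (SE, n = 3; edgeR adjusted p = 0.428) and 0.36 ± 0.14 without replicate 2 (edgeR adjusted p = 0.181). In introns it was -0.08 ± 0.09 (edgeR adjusted p = 0.797). Ccna2, the cyclin whose reporter was sorted on (mm9 chr3:36463786-36470918), stood at 318, 386 and 283 CPM in early G1 and at 522, 386 and 394 CPM in G2. It differed by 0.71 log2 in pair 1, by 0.00 in pair 2 and by 0.48 in pair 3. Its fitted difference was 0.40 ± 0.15 with all pairs and 0.61 ± 0.18 without replicate 2 (edgeR adjusted p = 0.381 and 0.115).

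No gene passed the test between G2 and early G1. Of 14092 exonic genes tested, 0 were called (0%; edgeR, BH-adjusted p under 0.05), and the lowest adjusted p was 0.356. At an unadjusted p under 0.05 there were 1768, of which 737 were higher in G2 (5.23% of genes) and 1031 lower (7.32%). That count was 351 without G2 replicate 1, 615 without early G1 replicate 3, 773 without early G1 replicate 1, 588 without the replicate block, 2588 without early G1 replicate 2 and 2654 without G2 replicate 2. DESeq2 called 1 gene (0.0071% of genes), Cd40, a receptor of the tumour necrosis factor family, at -1.40 log2 (DESeq2 adjusted p = 0.00973). Without the libraries numbered 2, edgeR called 0 of 14273 exonic genes (lowest adjusted p = 0.0912, 2911 at an unadjusted p under 0.05), and DESeq2 called 193 of 13272 (1.45%), of which 63 rose and 130 fell. Introns gave 0 calls of 14075 (0%; lowest edgeR adjusted p = 0.329, 1545 at an unadjusted p under 0.05, DESeq2 0), and of the 1545 genes 805 were higher (5.72%) and 740 lower (5.26%). Without the libraries numbered 2 they gave 41 of 14330 (0.286%) in edgeR, 22 higher and 19 lower, and 157 of 12437 (1.26%) in DESeq2, which also called 40 of the 41. A block nested in the DOX state gave 263 intronic calls in that case (1.84%), and a fit without the replicate block gave 0 (lowest edgeR adjusted p = 0.596, 1001 at an unadjusted p under 0.05).

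Pairs 1 and 3 were therefore described side by side, each on the scale of log2(CPM + 0.5). The standard deviation of the difference over the 10739 genes whose mean log2 CPM was 2 or more was 0.40 in pair 1, 0.11 in pair 2 and 0.25 in pair 3. Across those genes pair 1 and pair 3 correlated at r = 0.594 (Spearman rho = 0.535), a description over genes, which are not independent replicates. Over 0.5 log2 higher in both pair 1 and pair 3 were 126 of all 14092 exonic genes tested (0.894%), and over 0.5 lower were 500 (3.55%). Among the genes with a mean log2 CPM of 2 or more there were 82 higher and 201 lower, so many of the 500 had low counts. Apart from 20 genes described whatever their values, the genes named below were picked after the values were seen. They come from the 20 in each direction that go furthest from 0 in the lesser of pairs 1 and 3 (mean log2 CPM of 2 or more), from members of the lists, and from calls without the libraries numbered 2.

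**Figure D2:**
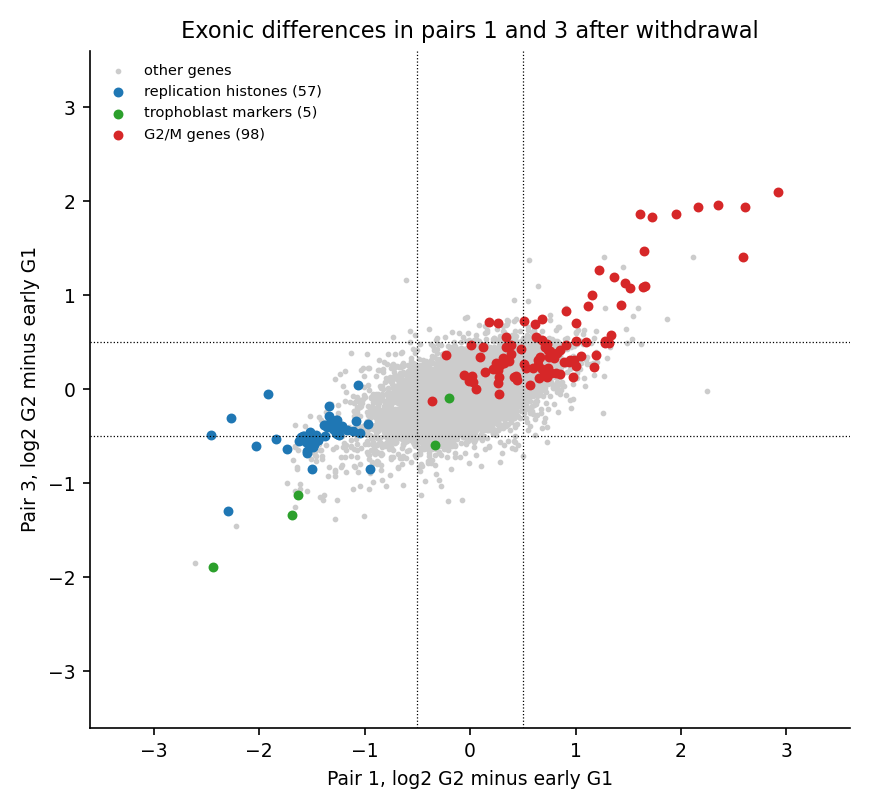
Log2 difference, G2 minus early G1 after withdrawal, of each exonic gene with a mean log2 CPM of 2 or more, in pair 1 (horizontal) and pair 3 (vertical), with dotted lines at 0.5 and -0.5. G2/M genes (red) reach up to Ube2c at 2.92 and 2.10, histones (blue) lie further from 0 in pair 1 than in pair 3, and Krt8 is the lowest trophoblast marker (green) at -2.43 and -1.89.

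The G2/M genes headed the order of what was higher in G2, with 17 of its first 20 genes, and were 29 of the 126 over 0.5 log2 higher in both pairs. Of 98 such genes, 97 had a fitted difference above 0 (48.9% of all genes did), and 93 were above 0 in both pair 1 and pair 3 (33.5% of genes). Over 0.5 log2 higher in both pairs were 29 of 98 (0.894% of genes were), and none was lower by as much (3.55%). At an unadjusted p under 0.05, 43 were higher (5.23% of genes were). None was called by edgeR. The median difference was 0.37 with all pairs and 0.57 without replicate 2, beside -0.01 over all genes, and by pair it was 0.72, 0.03 and 0.36. The list's summed level was 10139, 17223 and 12713 CPM in early G1 replicates 1 to 3 and 19904, 17619 and 19245 CPM in G2, so that the library labelled early G1 replicate 2 sat nearer to the G2 libraries than to the other early G1 libraries. Without G2 replicate 3 or without early G1 replicate 1, the other libraries close to one of late G1, the median was 0.43 and 0.28, and edgeR called 0 exonic genes in either case. Ncapg2, a condensin II subunit, was the 1 gene below 0 (-0.18).

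Among regulators of mitotic entry, Cdk1, the mitotic kinase (mm9 chr10:68799382-68815660), was at 99.9, 262 and 91.4 CPM in early G1 and at 389, 270 and 333 CPM in G2. The groups did not overlap, by the narrow gap between the libraries numbered 2. The difference was 1.15 ± 0.45 with all pairs (edgeR adjusted p = 0.381) and 1.92 ± 0.48 without replicate 2 (edgeR adjusted p = 0.106). Ccnb1, the cyclin that activates it (mm9 chr13:101548693-101556441), was at 261, 540 and 276 CPM in early G1 and at 673, 561 and 631 CPM in G2. It differed by 1.36, 0.06 and 1.19 log2 in pairs 1 to 3. Aurka, the centrosomal Aurora kinase, stood at 31.6, 84.5 and 50.3 CPM and at 99.9, 87.3 and 108 CPM. Aurkb, the Aurora kinase of the chromosomal passenger complex, stood at 32.2, 66.7 and 21.2 CPM and at 107, 72.2 and 77.1 CPM. Plk1, a kinase needed at several steps of mitosis, differed by 1.28 log2 in pair 1 and 0.52 in pair 3. For these kinases, early G1 replicates 1 and 3 were lower than every G2 library. Of 18 regulators of mitotic entry, all 18 were above 0 in pairs 1 and 3 (33.5% of genes were) and 6 were over 0.5 in both (0.894%). Ccnb2, the other B-type cyclin of the list, was close to 0 in each pair (0.05, 0.04 and 0.00).

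**Figure D3:**
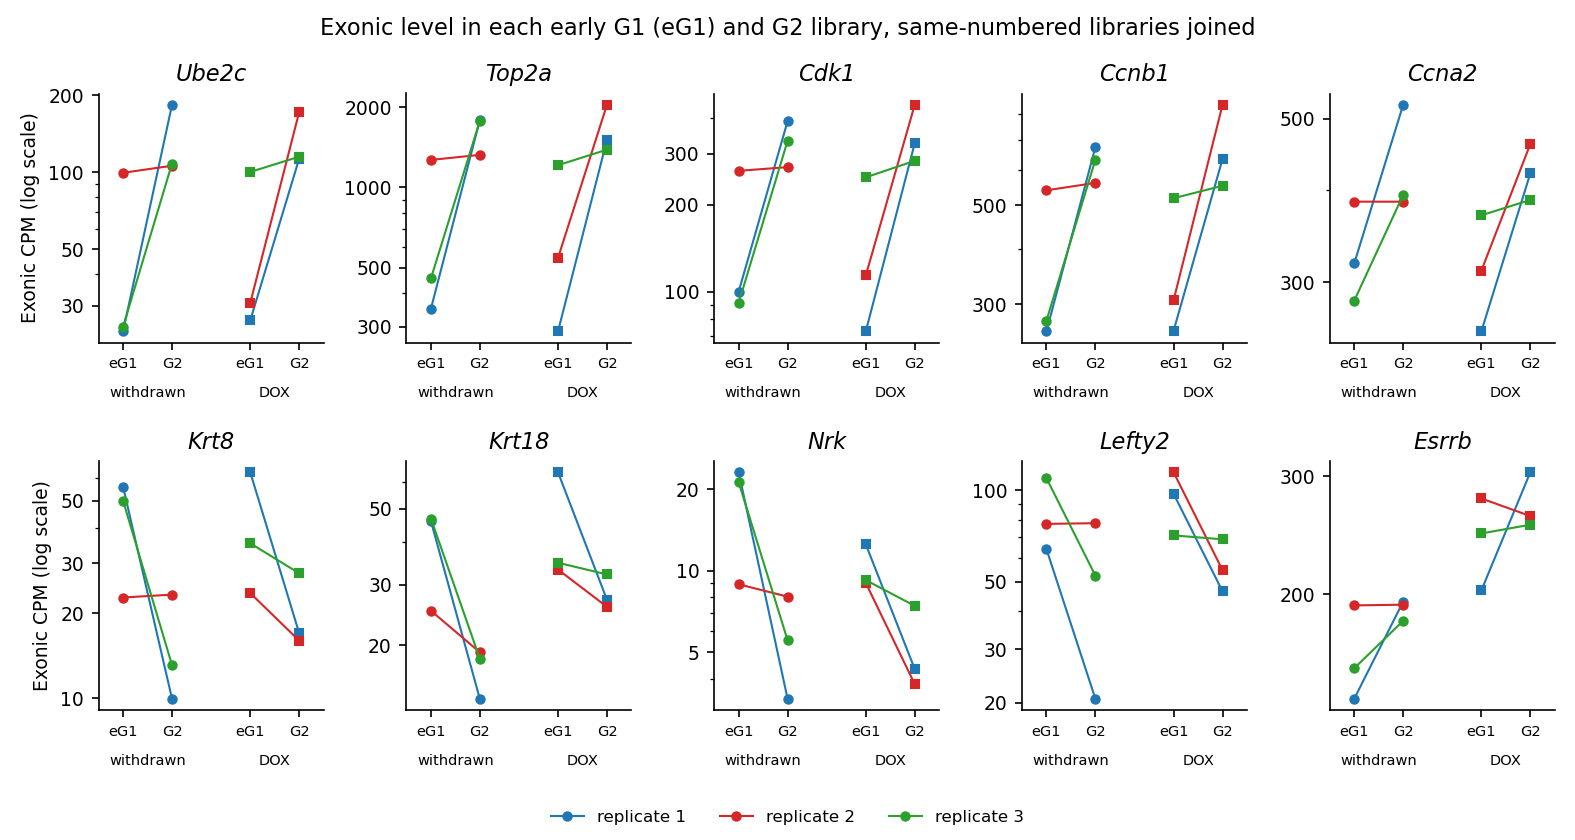
Exonic level in CPM (log axis) of 10 genes in each early G1 (eG1) and G2 library after withdrawal (circles) and with DOX (squares), with lines joining libraries of the same replicate number. After withdrawal replicate 2 (red) is nearly flat in every panel but Krt18, and with DOX replicate 3 (green), whose libraries gave a chi-square per degree of freedom of 1.48, is the flattest of the 3 for Ube2c, Top2a, Cdk1 and Ccnb1.

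Several genes of chromosome structure and the spindle stood near the head of the order. Top2a, the topoisomerase that untangles sister chromatids (mm9 chr11:98854260-98885503), was at 350, 1268 and 455 CPM in early G1 and at 1788, 1325 and 1776 CPM in G2. Its difference was 2.18 ± 0.54 without replicate 2 (edgeR adjusted p = 0.106) and 1.30 ± 0.51 with it (edgeR adjusted p = 0.381). Prc1, which bundles the microtubules of the central spindle, was at 43.5, 145 and 51.2 CPM and at 197, 161 and 198 CPM. Nusap1, a microtubule-binding protein of the spindle, was at 45.01, 170 and 53.5 CPM and at 277, 173 and 206 CPM. Kif11, the kinesin that pushes spindle poles apart, differed by 1.51 and 1.08 log2 in pairs 1 and 3, and the condensin subunit Smc4 by 1.66 and 1.10. Of 38 genes of the spindle and cytokinesis 10 were over 0.5 in both pairs (0.894% of all genes were), and of 11 of chromosome structure 4 were.

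Centromere and mitotic exit genes differed in the same direction. Cenpf, a large kinetochore protein, was at 108, 411 and 216.5 CPM in early G1 and at 656, 429 and 575 CPM in G2. Bub3, of the spindle checkpoint, was at 83.9, 186 and 71.9 CPM and at 263, 198 and 200 CPM. Ube2c, the ubiquitin-conjugating enzyme of the anaphase-promoting complex (mm9 chr2:164595428-164598402), had the largest difference of any gene in this order, at 23.8, 99.5 and 24.9 CPM in early G1 and 184, 106 and 108 CPM in G2. Its difference was 1.47 ± 0.60 with all pairs and 2.63 ± 0.62 without replicate 2 (edgeR adjusted p = 0.384 and 0.103). The activators of the complex differed in size: Fzr1 was 1.47 and 1.13 log2 higher in pairs 1 and 3, and Cdc20 was 0.72 and 0.14 higher. Of 23 centromere and checkpoint genes 7 were over 0.5 in both pairs (0.894% of all genes were), and 2 of 8 in mitotic exit. DESeq2 without the libraries numbered 2 called 3 of the 98 G2/M genes (1.45% of all genes tested): Cdc25b, a phosphatase that activates Cdk1, at 1.04 log2 (DESeq2 adjusted p = 0.0242), the spindle protein Tacc3 at 0.62 (DESeq2 adjusted p = 0.0338) and Birc5, survivin, at 0.72 (DESeq2 adjusted p = 0.0414). Cdk1, Top2a and Ube2c were not among its calls.

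Of the 20 genes that headed the order, 17 belonged to the G2/M list and the others were Depdc1b, Hn1 and Arl6ip1. Kpna2, a nuclear import receptor on the list, stood at 258, 628.5 and 209 CPM in early G1 and 787, 656 and 760 CPM in G2. Depdc1b was at 9.38, 26.5 and 14.1 CPM and at 42.1, 29.6 and 38.2 CPM, and Arl6ip1, a protein of the endoplasmic reticulum, was 1.27 and 1.41 log2 higher in pairs 1 and 3. In each, early G1 replicates 1 and 3 were the lowest libraries.

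Genes of S phase had a median difference nearer 0 than the G2/M genes. None of 71 G1/S genes was over 0.5 log2 higher or lower in both pairs (0.894% and 3.55% of genes were). At an unadjusted p under 0.05, 3 were higher (4.23%, beside 5.23% of genes) and 1 lower (1.41%, beside 7.32%). Above 0 in both pairs were 38 of the 71 (33.5% of genes were), and 8 were below 0 in both (34.7%). The list's median was 0.06 with all pairs and 0.10 without replicate 2, and by pair it was 0.04, 0.01 and 0.14. The genes named next are among those described whatever their values. Mcm5, of the replicative helicase, was at 465, 493 and 456 CPM in early G1 and at 426, 498 and 511 CPM in G2, and the groups overlapped. Pcna, the sliding clamp, differed by -0.48 log2 in pair 1 and 0.23 in pair 3. Cdc6, which loads the helicase, differed by -0.45 and -0.43, Cdt1, its partner, by 0.24 and 0.02, and the E cyclins by 0.11 and 0.23 (Ccne1) and by -0.66 and -0.38 (Ccne2). For Ccne2 the fitted difference was -0.42 ± 0.19 (edgeR adjusted p = 0.394) and -0.52 ± 0.25 without replicate 2 (edgeR adjusted p = 0.249).

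The replication histone genes lay lower in G2, and pair 1 held most of the difference. Of 59 tested of 61 listed, 25 were over 0.5 log2 lower in both pairs (3.55% of all genes were), and 56 were below 0 in both (34.7%). At an unadjusted p under 0.05, 23 were lower (7.32% of genes were). None was called by edgeR. DESeq2 without the libraries numbered 2 called 1 (1.45% of all genes were called), Hist1h1a, a linker histone, at -0.89 (DESeq2 adjusted p = 0.0267). The median was -0.59 with all pairs and -0.89 without replicate 2, and by pair -1.46, -0.07 and -0.49. Their summed level was 30800, 29262 and 32351 CPM in early G1 and 12090, 28032 and 23268 CPM in G2, so that G2 replicate 1, the deepest library, was the lowest. Here G2 replicate 2 lay nearer to the early G1 libraries than to the other G2 libraries. How the mRNA kit captured messages without a poly(A) tail was not tested. Hist1h4c, which encodes histone H4, was at 1244, 1217 and 1225 CPM in early G1 and 516, 1175 and 884.5 CPM in G2. The lowest in both pairs, Hist4h4, was at 59.9, 61.2 and 82.1 CPM and at 11.8, 57.4 and 33.1 CPM. Histone copies are near-identical, and counts of single copies may be shared between them.

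Genes of G1 control went both ways. Ccnd1, cyclin D1, was at 112, 118 and 119 CPM in early G1 and at 170, 126 and 159 CPM in G2, with no overlap, and its difference was 0.37 ± 0.14 with all pairs and 0.52 ± 0.17 without replicate 2 (edgeR adjusted p = 0.381 and 0.143). Its partner kinase Cdk6 was at 14.9, 22.1 and 16.98 CPM and at 25.3, 26.4 and 24.9 CPM, also without overlap. DESeq2 called Cdk6 without the libraries numbered 2 (0.68 log2; DESeq2 adjusted p = 0.0267). Ccnd2 and Ccnd3 were at -0.00 log2 in pair 1 and at 0.41 and 0.22 in pair 3. The cell cycle inhibitor Cdkn1a, p21, was at 73.1, 32.8 and 34.6 CPM and at 75.4, 31.6 and 31.0 CPM, which follow the replicate number and not the phase. The retinoblastoma gene Rb1 was 0.95 and 0.48 log2 lower in G2 in pairs 1 and 3, and the inhibitor genes Cdkn2b and Cdkn1c were 0.68 and 0.51 and 0.76 and 0.58 lower. Of 16 genes, 2 were over 0.5 higher in both pairs (0.894% of all genes were) and 2 over 0.5 lower (3.55%).

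The genes lowest in G2 in both pairs were led by keratins. Krt8, a simple-epithelium keratin (mm9 chr15:101827141-101834773), was at 56.0, 22.7 and 49.97 CPM in early G1 and at 9.96, 23.3 and 13.1 CPM in G2. Krt18, its partner (mm9 chr15:101858646-101862457), was at 46.1, 25.2 and 46.9 CPM and at 13.97, 19.1 and 18.3 CPM, and its groups did not overlap. Both are on the trophoblast list, as is Fgfr2, a receptor of fibroblast growth factors, at 15.8, 10.4 and 16.9 CPM and at 4.77, 11.7 and 7.51 CPM. The fitted differences were -1.38 ± 0.45, -1.18 ± 0.27 and -0.88 ± 0.26 for Krt8, Krt18 and Fgfr2 (edgeR adjusted p = 0.381 each). Without replicate 2 they were -2.20 ± 0.46, -1.53 ± 0.30 and -1.44 ± 0.24 (edgeR adjusted p = 0.0912 each), and DESeq2 called all 3 (DESeq2 adjusted p = 0.0374, 0.0261 and 5.4e-05). DESeq2 called 1.45% of all genes in that case. These 3 genes were picked by their values in pairs 1 and 3, the pairs kept there, so the calls are no separate evidence. Krt7, a further keratin, differed by -2.22 and -1.45 log2 in pairs 1 and 3.

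Of 14 trophoblast markers, 10 passed the filter on low counts, and 9 of these were below 0 in both pairs (34.7% of genes were). Over 0.5 lower in both were 5 (3.55% of genes were). The median was -0.68 with all pairs and -0.96 without replicate 2. The filter can keep a gene for its level in 1 group, so a low marker can enter through the group where it is higher. Hand1, Gata3 and Plac1 did not pass 1.62, 1.57 and 2.07 CPM, without TMM scaling, in the 6 libraries. The summed level of the 10 was 147, 84.8 and 151 CPM in early G1 and 49.6, 80.1 and 67.1 CPM in G2, most of it Krt8, Krt18, Fgfr2 and Tfap2c, while the defining markers Cdx2 and Elf5 had at most 11 and 2 counts. The part of cells of that kind in the result was not tested. Nrk, a kinase gene of the X chromosome, was at 23.1, 8.92 and 21.2 CPM and at 3.37, 8.03 and 5.54 CPM, the next in the order after Krt8 (-2.61 and -1.85 log2 in pairs 1 and 3). Slc40a1, the iron exporter, differed by -1.39 and -1.18, Efnb1, ephrin B1, by -1.26 and -1.18, and the X-linked homeobox gene Rhox6 by -1.61 and -1.005. In these genes early G1 replicate 2 again lay near its G2 partner.

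Some genes of the formative or primed state and of 2-cell-like cells, a rare state in ES cultures, were among those lower in G2. Lefty2, a Nodal antagonist (mm9 chr1:182823249-182829233), was at 64.0, 77.6 and 110 CPM in early G1 and at 20.6, 78.0 and 52.4 CPM in G2, and Lefty1, its neighbour, at 76.3, 166 and 228 CPM and at 39.96, 168 and 132 CPM. The groups overlapped for both, for Lefty2 through G2 replicate 2 alone. DESeq2 called both without the libraries numbered 2, at -1.29 and -0.84 log2 (DESeq2 adjusted p = 0.0481 and 0.031). Of 21 formative or primed genes, 5 were over 0.5 lower in both pairs (3.55% of genes were), and Lef1, a Wnt pathway transcription factor, was over 0.5 higher. The list's median was -0.03 with all pairs and 0.01 without replicate 2. All 10 genes tested of the 2-cell-like list were below 0 with all pairs (51.1% of genes were). Over 0.5 lower in both pairs were 5 (3.55% of genes were), of which Zscan4c, Zscan4d and Zscan4f are near-identical copies. Zscan4c was at 128, 68.4 and 141 CPM in early G1 and at 45.85, 66.6 and 86.6 CPM in G2, and it differed by -1.47, -0.04 and -0.70 in pairs 1 to 3.

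Naive pluripotency genes were slightly higher in G2 in exons. In introns 7 of 20 were above 0 in both pairs (29.7% of genes were), and the median was 0.06 with all pairs and 0.11 without replicate 2. Of 22 genes in exons, 19 were above 0 in both pairs (33.5% of genes were), none was over 0.5 in both, and the median was 0.19 with all pairs and 0.28 without replicate 2. Zfp42, also called Rex1, was at 233, 749 and 559 CPM in early G1 and at 430, 746 and 746 CPM in G2, and Klf2 at 19.4, 37.0 and 32.8 CPM and at 30.0, 37.7 and 43.9 CPM. Nanog was at 145, 274 and 217 CPM and at 172, 270 and 235 CPM, and Pou5f1 at 1328, 1630 and 1249 CPM and at 1580, 1628 and 1339 CPM. For each of the 4 the groups overlapped. Without the libraries numbered 2, DESeq2 called Zfp42 at 0.66 log2 and Foxd3, a core pluripotency gene, at 1.00 (DESeq2 adjusted p = 0.0498 and 0.0186). Of 9 DNA methylation genes, 7 were above 0 in both pairs (33.5% of genes were), with a median of 0.30 and, without replicate 2, of 0.44. Dnmt3l, a cofactor of the de novo methyltransferases, differed by 0.49 and 0.40 log2. The 17 genes of the Esrrb response list had a median of -0.05 and, without replicate 2, of -0.01, and 0 were over 0.5 in both pairs.

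Further lists differed by small amounts. Of 18 genes of the p53 response, 13 were below 0 in both pairs (34.7% of genes were), with a median of -0.20 with all pairs and -0.35 without replicate 2. Trp53inp1, a p53 target that promotes autophagy and cell death, was at 382, 329.5 and 454 CPM in early G1 and at 174, 318 and 278 CPM in G2, and DESeq2 without the libraries numbered 2 called it at -0.89 (DESeq2 adjusted p = 0.00653). All 17 cholesterol synthesis genes were below 0 (51.1% of genes were), 14 of them in both pairs (34.7%). Their median was -0.22 and, without replicate 2, -0.29, and none was over 0.5 in both. The sterol enzyme gene Cyp51 differed by -0.91 and -0.39 log2. The ATF4 and stress genes had a median of 0.21 with all pairs and 0.33 without replicate 2. DESeq2 without replicate 2 called 3 of 19 higher (1.45% of all genes were called in either direction), Gpt2, Mthfd2 and Psat1, enzymes of amino acid and folate metabolism (0.83, 0.62 and 0.46 log2; DESeq2 adjusted p = 0.00393, 0.0215 and 0.0297). The 85 respiratory chain genes had a median of 0.10 with all pairs and 0.13 without replicate 2, with 60 above 0 in both pairs (33.5% of genes were).

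**Figure D4:**
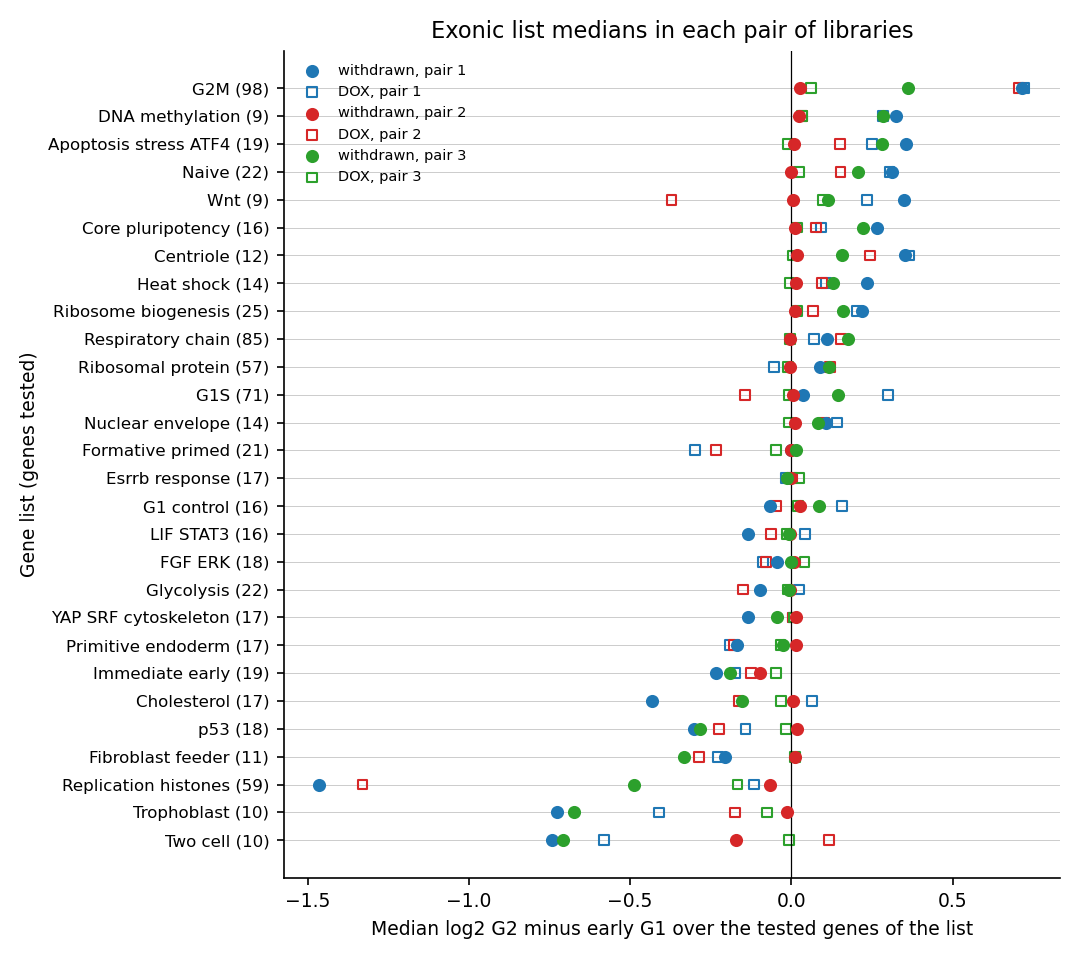
Median log2 difference, G2 minus early G1, over the tested exonic genes of each list (number in brackets), by pair of libraries after withdrawal (circles) and with DOX (open squares). Pair 2 after withdrawal (red circles) and pair 3 with DOX (green squares) lie near 0 in most lists, and the G2/M list is the highest at 0.72 and 0.36 in pairs 1 and 3 after withdrawal.

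With DOX kept, the same phases gave 0 calls of 14092 exonic genes (0%; lowest edgeR adjusted p = 0.72, 931 at an unadjusted p under 0.05). Their libraries are not shared with the withdrawn groups. Of the 126 genes over 0.5 higher in pairs 1 and 3 after withdrawal, 98 (77.8%) were above 0 in pairs 1 and 2 with DOX, where 31.6% of all genes were. Of the 500 lower genes 362 (72.4%) were below 0, where 30.1% of all genes were. These shares leave out pair 3 with DOX, whose libraries were close to each other (chi-square per degree of freedom 1.48), a choice not planned before the data were seen. In the pairs kept, G2 replicate 1 and early G1 replicate 2 were each close to a late G1 library (1.145 and 1.05). The G2/M medians by pair with DOX were 0.72, 0.71 and 0.06. The histone medians were -0.12, -1.33 and -0.17. The test of whether the phase difference itself differed between withdrawal and DOX called 0 of 14092 genes (0%; lowest edgeR adjusted p = 0.9999, 176 at an unadjusted p under 0.05, DESeq2 0). Without the libraries numbered 2 it called 0 with edgeR as well (425 at an unadjusted p under 0.05). The 176 genes are 1.25% of those tested, a share below the threshold of 0.05 itself. The 0 calls therefore do not show that the phase difference was the same in both states.

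Intronic counts gave smaller differences for the G2/M genes than exonic counts. They can hold unspliced RNA and other reads, and the part of each was not tested. Tex14 alone held 11%, 5.9% and 5.8% of them in early G1 replicates 1 to 3 and 16.7%, 5.8% and 7.4% in G2. Of 97 G2/M genes tested in introns, 85 had a fitted difference above 0 (49.7% of genes did). Above 0 in both pairs were 71 (29.7%), and 4 were below 0 (29.9%). In both pairs 9 were over 0.5 higher (1.83% of genes) and 0 over 0.5 lower (1.95%), and the median was 0.14 with all pairs and 0.22 without replicate 2. The exonic mean of pairs 1 and 3 was above the intronic mean for 82 of the 97 (84.5%), and for 52.3% of the 12516 genes tested in both tables. Top2a introns were at 73.2, 171 and 107 CPM in early G1 and at 182, 175 and 214 CPM in G2. Without the libraries numbered 2, edgeR called Ube2c introns higher by 1.26 ± 0.25 log2 (edgeR adjusted p = 0.0446) and Aurkb introns by 1.05 ± 0.22 (edgeR adjusted p = 0.0496), 2 of the 41 calls, none of which was called without the replicate block. Top2a introns, at 1.16 ± 0.27, did not pass (edgeR adjusted p = 0.056). Cdk1 had a mean of 1.91 log2 in exons and 0.37 in introns.

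**Figure D5:**
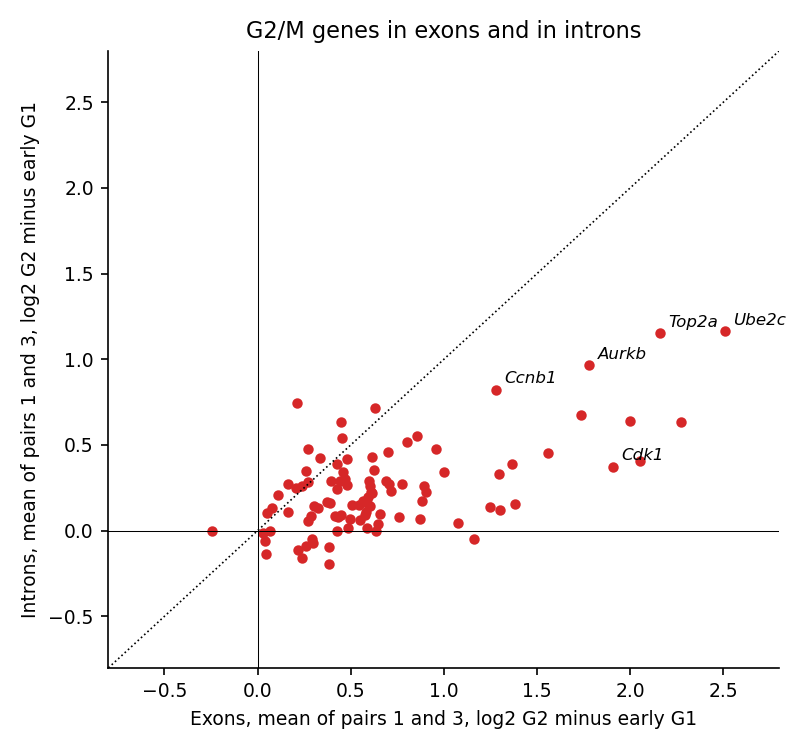
Mean log2 difference of pairs 1 and 3, G2 minus early G1 after withdrawal, in exons (horizontal) and introns (vertical) for the 97 G2/M genes tested in both, with the dotted line at equality. Most points, 82 of 97, lie below the line, and Cdk1 has 1.91 in exons and 0.37 in introns.

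Other intronic calls without the libraries numbered 2 lay outside the cell cycle lists, and these too were lost without the replicate block. Slit2, an axon guidance ligand, fell by 1.26 ± 0.20 on the log2 scale (edgeR adjusted p = 0.0446), from 60.6 and 36.4 CPM in early G1 replicates 1 and 3 to 23.9 and 16.3 CPM in G2, with replicate 2 at 26.0 and 25.3 CPM. Zscan4d introns fell by 1.90 ± 0.36 on the log2 scale (edgeR adjusted p = 0.0446), in the same direction as its exons. Lrrc39 rose by 1.33 and Plcb4, a phospholipase C, by 1.02 (edgeR adjusted p = 0.0446 each). Armc4 introns were at 39.3, 99.6 and 30.3 CPM and at 96.9, 103 and 104 CPM, and did not pass (edgeR adjusted p = 0.0502). Intronic counts can hold reads of overlapping or antisense genes, which cannot be separated here. Leaving out early G1 replicate 2 alone gave 51 intronic calls (0.357%), of which 29 were among the 41.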

How the data were processed

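The 18 RNA-seq libraries were made with a stranded mRNA kit, per the labels' protocols. The deposited tables are raw counts per RefSeq gene in exons and in introns, as read from the file headers. Build mm9, CASAVA 1.8, Bowtie and DESeq2 appear in the submitters' processing notes without a stated role. The exonic table has 20300 genes. The intronic table has 17916, followed by 2377 blank rows that were left out. Neither the counter nor its annotation version or strand setting is stated in these sources. In each, 27 symbols written as dates were restored through accessions. All libraries entered 1 edgeR fit (4.0.16, R 4.3.3) of 6 group means with the replicate number as a block, TMM scaling, filterByExpr and quasi-likelihood F tests, BH-adjusted at 0.05. DESeq2 1.42.0 was an alternative. The fit was tested on simulated data with 200 changed genes, drawn as independent libraries with the change in all 3 G2 libraries after withdrawal. The simulation held no near-identical libraries under different labels, so it cannot show how the fit behaves with them. Pairs come from replicate numbers in the labels. Deviations of same-numbered early G1 and G2 libraries from their group means correlated at 0.61, 0.346 and 0.727 in exons. Pair differences used a pseudocount of 0.5 CPM, and library agreement used genes with at least 50 summed counts. The rule for named genes takes those past the threshold, of which there were none, so 20 fixed genes and the order by pairs were used instead. Members and lists were chosen with earlier results of these data known. Lists are described by counts and medians with no set test, and 4 entries were not matched. Precision is limited by 3 libraries per group.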

Additional observations from a re-analysis of the deposited data

Results flagged for a closer look

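Pygl, the liver glycogen phosphorylase, had intronic differences between G2 and early G1 below 0 in all 3 pairs after withdrawal (-0.18, -0.65 and -0.16 log2) and above 0 in all 3 with DOX (0.22, 0.52 and 0.04). The difference between the states was -0.74 log2 (edgeR unadjusted p = 0.113, adjusted p = 1), and its intronic level was 1.58 to 2.84 CPM. The -0.65 is from pair 2, whose libraries hardly differed over all genes (chi-square per degree of freedom 1.18 in introns). In exons Pygl was lower in G2 in all 6 pairs. It is 1 of 51 genes of the report looked at in introns. Groups of 3 libraries were not examined for outlying samples.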

How the results depend on the processing

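The replicate number pairs the libraries, and without the replicate block the calls stayed at 0 in exons and 0 in introns, with a G2/M median of 0.338 beside 0.366. Leaving out 1 library at a time gave 0 exonic calls each time, intronic calls from 0 to 51, 0 genes whose difference differed between withdrawal and DOX, and G2/M medians from 0.231 (without G2 replicate 1) to 0.551 (without early G1 replicate 2). The 6 libraries alone gave 1 intronic call, and DESeq2 gave 1 exonic call. With both libraries numbered 2 left out, chosen after the data were seen, the G2/M median was 0.572, and DESeq2 gave 193 exonic and 157 intronic calls. Intronic calls in that case were 41 with the replicate block, 263 with the block nested in the DOX state and 0 with no replicate block. The cause was not tested. Sign changes were checked for 57 genes in exons, the 20 fixed genes and the 20 in each direction of the order by pairs. In introns they were checked for the 40 genes of the intronic order. Other genes named in the report were not part of this check. Of the genes checked, 6 changed sign in some alternative. Leaving out 1 library at a time, the log2 differences ran from -0.195 to 0.0538 for Pcna (above 0 also at 0.0438), from -0.0289 to 0.0889 for Mcm5 (below 0 also at -0.0177 and -0.0015), from -0.0758 to 0.292 for Ccnd2, from -0.0036 to 0.149 for Ccnd3, from -0.166 to 0.0405 for Cdkn1a (above 0 also at 0.0134) and from -0.0234 to 0.154 for Cdt1. RLE scaling and no filter on low counts moved no count past 1.5 times. Depth was at least 17.7 M exonic counts in each of the 6 libraries, and the number of distinct libraries limits these results.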
